A study of Mus musculus with 12 samples.

Results

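The difference between the *Sox17*-*Erg* effect at 4 weeks and the *Sox17*-*Erg* effect at Day 3 was examined gene by gene, and each difference was then traced to the control cells or to the *Sox17*-*Erg* cells. Cardiac fibroblasts from pooled hearts of neonatal mice had been isolated by magnetic sorting for THY1, a surface protein of fibroblasts, and infected with *Sox17* and *Erg* retroviruses or kept as controls. The comparison used 8 of the 12 bulk RNAseq libraries of the series, 2 in each of 4 groups: control Day 3, *Sox17*-*Erg* Day 3, control 4 weeks and *Sox17*-*Erg* 4 weeks. All groups were labelled as heart fibroblasts grown in EGM2, an endothelial growth medium, so that the medium and the time in culture were shared by both arms. The library names of the controls carry PMX, the name of the retroviral backbone, and the sources used here do not state what insert, if any, the control virus carried. The factors were driven by a retroviral vector and not by their own promoters, and pooled hearts and a sorted but mixed cell population limit the libraries as a model of single cells. Of 15506 genes tested, 498 (3.21%) had a difference in effect that passed the test.

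SOX17 is a transcription factor of endothelial and arterial cells and ERG is an ETS-family transcription factor that maintains endothelial identity. Cardiac fibroblasts make the collagens, periostin and proteoglycans of the heart's interstitial matrix and change their own expression when they are kept on culture plates. An effect that changes between time points can therefore come from a change in the treated cells, from a change in the cells they are compared with, or from both. The quantity reported here is the log2 ratio of *Sox17*-*Erg* to control at 4 weeks minus the same ratio at Day 3, which equals the log2 change of the *Sox17*-*Erg* cells over that time minus the log2 change of the control cells. A positive value is called higher and a negative value lower.

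The 8 libraries held 19011635 to 41240449 counts each. *Sox17*, which is counted with its retroviral copy, was at 781 and 432 CPM (counts scaled to library size with TMM factors) in the *Sox17*-*Erg* Day 3 libraries and at 1036 and 914 CPM at 4 weeks, against no more than 0.416 CPM in the control libraries of both times. *Erg* was at 46.6 and 25.9 CPM at Day 3 and at 65.2 and 27.7 CPM at 4 weeks in the *Sox17*-*Erg* libraries. The control libraries had 0.0728 and 2.27 CPM of *Erg* at Day 3 and 0.100 and 0.163 CPM at 4 weeks. Neither transgene passed the test of a difference in effect (adjusted p = 0.23 for *Sox17* and 0.37 for *Erg*, edgeR's quasi-likelihood test). Fibroblast genes were present in every library: *Thy1*, the gene of the sorting marker, was between 122 and 428 CPM and *Col1a1* between 3722 and 19230 CPM.

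Replicate libraries of one group were not equal in RNA of genes that mark other cell types. Control Day 3 replicate 2 held 14.3 CPM of *Cdh5*, the gene of VE-cadherin, and 7.40 CPM of *Emcn*, against 0.910 and 1.24 CPM in replicate 1. The study added to its isolation a depletion of PECAM1-bearing cells, which would remove endothelial cells. The summed level of 24 macrophage and leukocyte genes was 72.6 and 585 CPM in the 2 control libraries of 4 weeks and 94.3 and 461 CPM in the 2 *Sox17*-*Erg* libraries of 4 weeks. At Day 3 the same sum was 592 and 378 CPM in controls and 392 and 412 CPM in *Sox17*-*Erg* cells. *Ptprc*, the pan-leukocyte gene, was between 0.226 and 4.18 CPM, and none of the 24 genes had a called difference in effect. In bulk libraries fewer cells of a type and less RNA per cell cannot be told apart.

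The difference in effect was higher for 345 genes (2.22% of those tested) and lower for 153 genes (0.987%) at an adjusted p under 0.05 in edgeR's quasi-likelihood test. With the replicate number as a block within each time point, 638 genes were higher and 430 were lower. The median difference was 2.13 on the log2 scale over the 345 higher genes and -1.65 over the 153 lower genes, against -0.03 over all genes tested. Every library mattered for the number of calls: leaving out 1 of the 8 libraries left between 127 and 216 higher genes and between 44 and 83 lower genes. The fewest calls of either direction remained without control Day 3 replicate 1. All 498 genes had the same sign of difference in each of these 8 fits, and 131 of them, 98 higher and 33 lower, were called in every one. Each such fit leaves a group with 1 library, which is then assumed to vary like the libraries of the other groups.

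Both arms contributed to the differences. To decide which arm moved more, the sum of both changes was tested: where the *Sox17*-*Erg* change and the control change have opposite signs, their sum takes the sign of the larger. By this test the *Sox17*-*Erg* change was larger for 166 genes (33.3% of the 498), the control change for 154 genes (30.9%), and neither was shown to be larger for 178 genes (35.7%). With the replicate number as a block within time points these counts were 418, 341 and 309. Among higher genes, 128 were of the first kind and 89 of the second. Among lower genes it was 38 and 65, so there the control cells were more often the larger mover. The difference between these proportions was not tested.

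**Figure D1:**
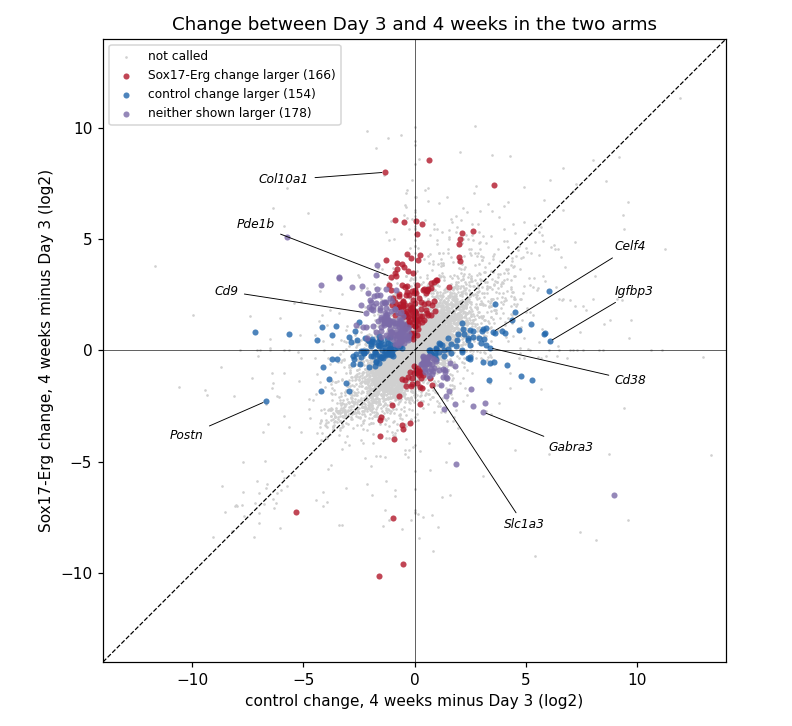
Each point is a gene, with its log2 change from Day 3 to 4 weeks in control cells on the x axis and in *Sox17*-*Erg* cells on the y axis. The 498 called genes lie away from the dashed line of equal change, 345 above it and 153 below it, and are coloured by the arm whose change was larger (1 gene of 15506, not called, lies outside the axes).

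The changes within each arm were then read on their own. From Day 3 to 4 weeks, 2339 genes rose (15.1%) and 2424 fell (15.6%) in *Sox17*-*Erg* cells, while 2154 rose (13.9%) and 1948 fell (12.6%) in controls. Of the 345 higher genes, 146 rose in *Sox17*-*Erg* cells with a control change that did not pass the test, 83 rose in *Sox17*-*Erg* cells and fell in controls, and 88 fell in controls with no called change in *Sox17*-*Erg* cells. A further 18 rose in both arms and 10 fell in both. Of the 153 lower genes, 60 rose in controls alone by these calls, 40 fell in *Sox17*-*Erg* cells alone, 29 fell in *Sox17*-*Erg* cells and rose in controls, 16 rose in both and 8 fell in both.

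Read at each time point, most differences were effects that were called at 4 weeks and not at Day 3. Of the 345 higher genes, 206 had a positive effect at 4 weeks and none that passed at Day 3, 89 were higher in *Sox17*-*Erg* cells at both times, and 17 turned from a negative to a positive effect. In 27 a negative effect at Day 3 was no longer called at 4 weeks. Of the 153 lower genes, 96 had a negative effect at 4 weeks alone, 34 had a positive effect at Day 3 alone, and 12 turned from positive to negative. Across all genes tested the effect was positive for 7.19% and negative for 5.13% at Day 3, and positive for 11.9% and negative for 11% at 4 weeks.

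Day 7 libraries did not enter the difference, and in the arm with the larger change their means mostly lay between the end points. The classes were chosen by a large change between the same end points in that arm. A Day 7 mean between them was therefore likely, and the counts are a description and not separate support. Among the 128 higher genes with the larger *Sox17*-*Erg* change, the Day 7 mean of the *Sox17*-*Erg* libraries was between those of Day 3 and 4 weeks for 127. Among the 89 higher genes with the larger control change, the control mean at Day 7 was between the end points for 82, and among the 65 lower genes with the larger control change for 64. The 38 lower genes with the larger *Sox17*-*Erg* change had such a Day 7 mean in 33 cases. In the other arm it was so for 54, 43, 28 and 19 genes of these classes. Where neither arm was shown to move more, it held for 102 (*Sox17*-*Erg*) and 94 (control) of 128 higher genes and for 36 and 38 of 50 lower genes.

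**Figure D2:**
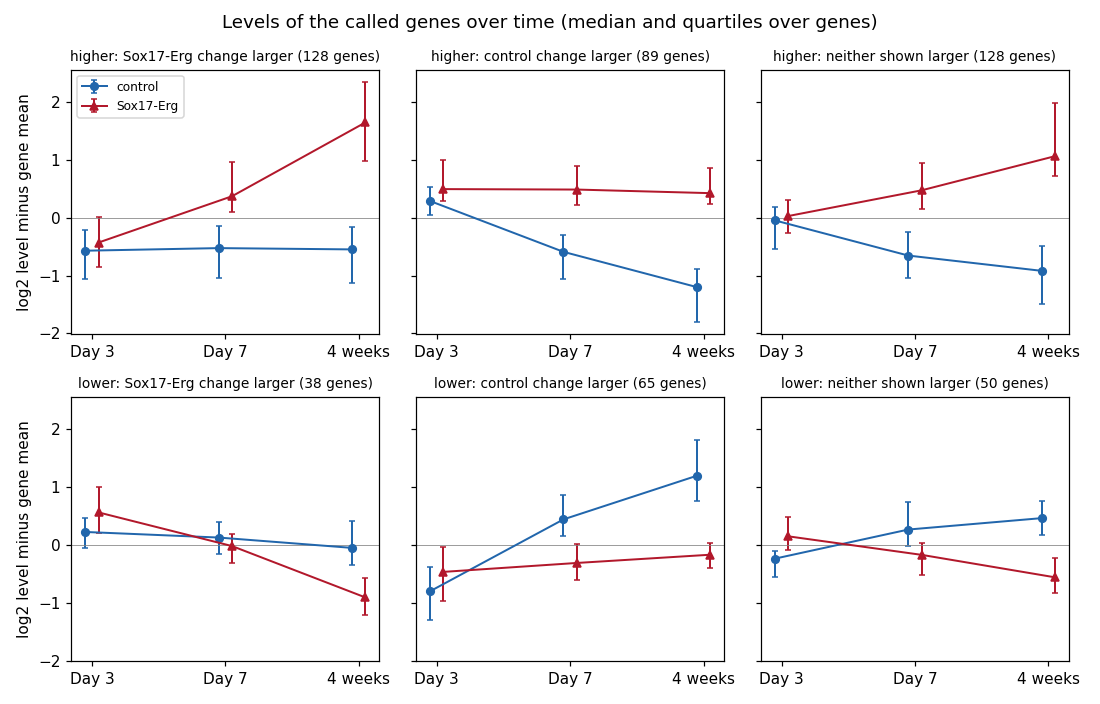
Log2 level relative to each gene's own mean (y axis) at Day 3, Day 7 and 4 weeks (x axis) for the called genes, split by direction and by the arm with the larger change. Points are medians over genes and bars are quartiles. In the panel of 128 higher genes the control median stays near -0.55 while the *Sox17*-*Erg* median goes from -0.43 to 1.65, and in the panel of 65 lower genes the control median goes from -0.80 to 1.20.

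Of the genes with a higher effect and a larger *Sox17*-*Erg* change, the 5 with the lowest p were highest in the *Sox17*-*Erg* libraries of 4 weeks. *Stk38l*, which encodes a serine/threonine kinase of the NDR family (chromosome 6, 146724995 to 146778812, GRCm38), was at 10.3 and 10.7 CPM in control Day 3 and 7.24 and 7.48 CPM in control 4 weeks libraries. In *Sox17*-*Erg* cells it went from 16.9 and 14.8 CPM at Day 3 to 76.8 and 68.0 CPM at 4 weeks. The 4 groups did not overlap, and the difference in effect was 2.70 on the log2 scale (standard error 0.20, adjusted p = 0.00072). About 22.01% of the 31-base words of *Stk38l* also occur in transcripts of other genes, so part of its counts may be shared.

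*Pde1b*, a calcium- and calmodulin-dependent phosphodiesterase gene, started level in both arms, at 4.29 and 4.67 CPM in controls and 3.90 and 5.69 CPM in *Sox17*-*Erg* cells at Day 3. At 4 weeks it was at 51.5 and 43.8 CPM in *Sox17*-*Erg* cells and at 1.95 and 2.36 CPM in controls, a difference in effect of 4.37 (standard error 0.36, adjusted p = 0.0011). *Rgs4*, a regulator of G protein signalling, rose in *Sox17*-*Erg* cells from 3.14 and 5.13 CPM to 49.9 and 47.6 CPM, while the 4 control libraries stayed between 0.576 and 0.895 CPM. *Cdh13*, which encodes the membrane-anchored T-cadherin of vascular cells, rose from 46.8 and 39.6 CPM to 406 and 257 CPM in *Sox17*-*Erg* cells, against 9.68 to 19.1 CPM in controls. *Synj2*, a phosphoinositide phosphatase gene, had the smallest difference of the 5 genes with the lowest p in this class, 2.46 (standard error 0.23), and fell in controls by 0.89. None of these 5 genes lost its call without any 1 library.

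In the class with a higher effect and a larger control change, the 5 genes with the lowest p fell in controls and fell less, or did not fall, in *Sox17*-*Erg* cells. *Postn*, which encodes the matrix protein periostin of activated fibroblasts (chromosome 3, 54361109 to 54391037), was at 5120 and 5992 CPM in control Day 3 libraries and at 60.4 and 47.5 CPM in control 4 weeks libraries. In *Sox17*-*Erg* cells *Postn* was at 5933 and 8196 CPM at Day 3 and at 1542 and 1346 CPM at 4 weeks. *Postn* thus fell in both arms, by 6.69 in controls and by 2.29 in *Sox17*-*Erg* cells, and the effect at 4 weeks exceeded that at Day 3 by 4.40 (standard error 0.38, adjusted p = 0.0013). At Day 3 the groups overlapped and the effect was 0.35, which did not pass the test.

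*Fgd3*, a guanine nucleotide exchange factor gene, fell in controls from 35.0 and 31.3 CPM to 4.99 and 4.76 CPM, and in *Sox17*-*Erg* cells from 70.8 and 62.6 CPM to 45.0 and 42.2 CPM. Its difference was 2.15 (standard error 0.16, adjusted p = 0.00072). *Plec*, which encodes the cytoskeletal linker plectin, fell in controls from 963 and 827 CPM to 311 and 288 CPM, while the *Sox17*-*Erg* libraries held 645 and 656 CPM at Day 3 and 815 and 697 CPM at 4 weeks. *Cacnb3*, a calcium channel subunit gene, fell by 1.26 in controls and rose by 0.49 in *Sox17*-*Erg* cells. *Pgf*, the placental growth factor of the VEGF family, fell by 2.52 in controls, from 13.1 and 12.6 CPM to 2.73 and 1.67 CPM, and rose by 1.26 in *Sox17*-*Erg* cells, to 44.7 and 28.9 CPM. In each of these genes the 2 control libraries of 4 weeks were below every other library of the comparison.

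Where the effect was higher and neither arm was shown to move more, the 5 genes with the lowest p rose in *Sox17*-*Erg* cells and fell in controls. *Cd9*, which encodes a tetraspanin membrane protein (chromosome 6, 125460266 to 125494791), had the lowest p of all genes. It fell in controls from 82.4 and 95.8 CPM to 19.7 and 19.6 CPM and rose in *Sox17*-*Erg* cells from 55.5 and 67.8 CPM to 225 and 172 CPM, a difference of 3.87 (standard error 0.24, adjusted p = 0.00061). At Day 3 both *Sox17*-*Erg* libraries were below both controls, with an effect of -0.53 that did not pass the test, and at 4 weeks they were above them by 3.34. For *Cd9*, 20.1% of its 31-base words occur in transcripts of other genes. *Gpc1*, the gene of the heparan sulfate proteoglycan glypican, fell from 12.4 and 11.6 CPM to 3.23 and 2.97 CPM in controls and rose from 18.2 and 17.5 CPM to 69.3 and 59.4 CPM in *Sox17*-*Erg* cells.

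*Magix*, *Parvb* and *Rflnb* behaved likewise, with differences of 4.27, 2.95 and 4.19. *Parvb* encodes a parvin of integrin adhesions and *Rflnb* a filamin-binding protein. *Rflnb* was similar in the 4 Day 3 libraries (between 21.8 and 38.9 CPM), and at 4 weeks stood at 133 and 139 CPM in *Sox17*-*Erg* cells and 9.15 and 9.72 CPM in controls. *Magix* already differed at Day 3, at 17.7 and 13.8 CPM against 2.04 and 1.06 CPM, and reached 90.6 and 81.6 CPM against 0.501 and 0.366 CPM at 4 weeks.

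Among lower genes with a larger control change, the 5 with the lowest p rose in controls and rose less, or had no called change, in *Sox17*-*Erg* cells. *Celf4*, which encodes an RNA-binding protein known from neurons (chromosome 18, 25477632 to 25754157), was at 4.66, 4.58, 4.91 and 4.61 CPM in the 4 Day 3 libraries. In controls it rose to 53.8 and 52.2 CPM and in *Sox17*-*Erg* cells to 8.39 and 8.52 CPM, a difference in effect of -2.69 (standard error 0.18, adjusted p = 0.00066). *Cd38*, the gene of an NAD-consuming ectoenzyme, rose in controls from 23.1 and 23.9 CPM to 225 and 262 CPM, while the *Sox17*-*Erg* libraries held between 22.1 and 33.5 CPM at both times. *Pde7b*, a cyclic AMP phosphodiesterase gene, rose by 2.40 in controls alone.

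*Igfbp3*, which encodes an insulin-like growth factor binding protein (chromosome 11, 7206086 to 7213923), had one of the largest lower differences, -5.67 (standard error 0.54, adjusted p = 0.0022). It was at 18.1 and 26.4 CPM in control Day 3 libraries and at 736 and 530 CPM in *Sox17*-*Erg* Day 3 libraries. At 4 weeks the controls had reached 1641 and 1357 CPM, above the 746 and 929 CPM of *Sox17*-*Erg* cells. The *Sox17*-*Erg* change of 0.40 did not pass the test, so the called movement of *Igfbp3* was in the control cells. *Sytl5*, a synaptotagmin-like gene, had the same form: the controls went from 2.69 and 2.45 CPM to 19.8 and 24.0 CPM, and the effect turned from 2.75 at Day 3 to -0.87 at 4 weeks, both called.

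With 1 Gm gene model passed over, the 5 lower genes with the lowest p and a larger *Sox17*-*Erg* change all fell in *Sox17*-*Erg* cells. *Slc1a3*, which encodes a glutamate transporter (chromosome 15, 8634124 to 8710764), fell from 12.9 and 13.8 CPM to 4.21 and 4.96 CPM in *Sox17*-*Erg* cells and rose from 12.1 and 10.8 CPM to 17.97 and 21.3 CPM in controls, a difference of -2.32 (standard error 0.20, adjusted p = 0.0013). *Gdf6*, a ligand gene of the BMP family, was higher in *Sox17*-*Erg* cells at Day 3 (223 and 245 CPM against 94.7 and 96.3 CPM) and lower at 4 weeks (108 and 92.2 CPM against 162 and 142 CPM). *Celf2*, another RNA-binding protein gene, fell by 0.93, *Suclg2*, a subunit gene of a succinyl-CoA ligase of the citric acid cycle, by 1.11, and *Prr5*, a subunit gene of an mTOR complex, by 1.59 in *Sox17*-*Erg* cells, and their control changes did not pass the test.

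In the lower class where neither arm was shown to move more, *Mpp6*, a membrane scaffold gene, rose in controls from 62.3 and 52.7 CPM to 143 and 176 CPM and fell in *Sox17*-*Erg* cells from 72.7 and 73.9 CPM to 32.6 and 29.5 CPM. *Gabra3*, a GABA receptor subunit gene, was low throughout but separated cleanly, from 0.546 and 0.462 CPM to 4.16 and 4.51 CPM in controls and from 0.911 and 1.12 CPM to 0.142 and 0.148 CPM in *Sox17*-*Erg* cells. The other 3 genes with the lowest p in the class had a large effect at Day 3 that was not called at 4 weeks. *Gsta4*, a glutathione transferase gene, was at 98.6 and 94.2 CPM against 7.42 and 5.36 CPM at Day 3 and at 25.3 and 21.9 CPM against 19.7 and 14.03 CPM at 4 weeks. *St3gal1*, a sialyltransferase gene, and *Eda*, the gene of the ligand ectodysplasin, had effects of 1.56 and 2.24 at Day 3 and of -0.28 and -0.25 at 4 weeks.

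**Figure D3:**
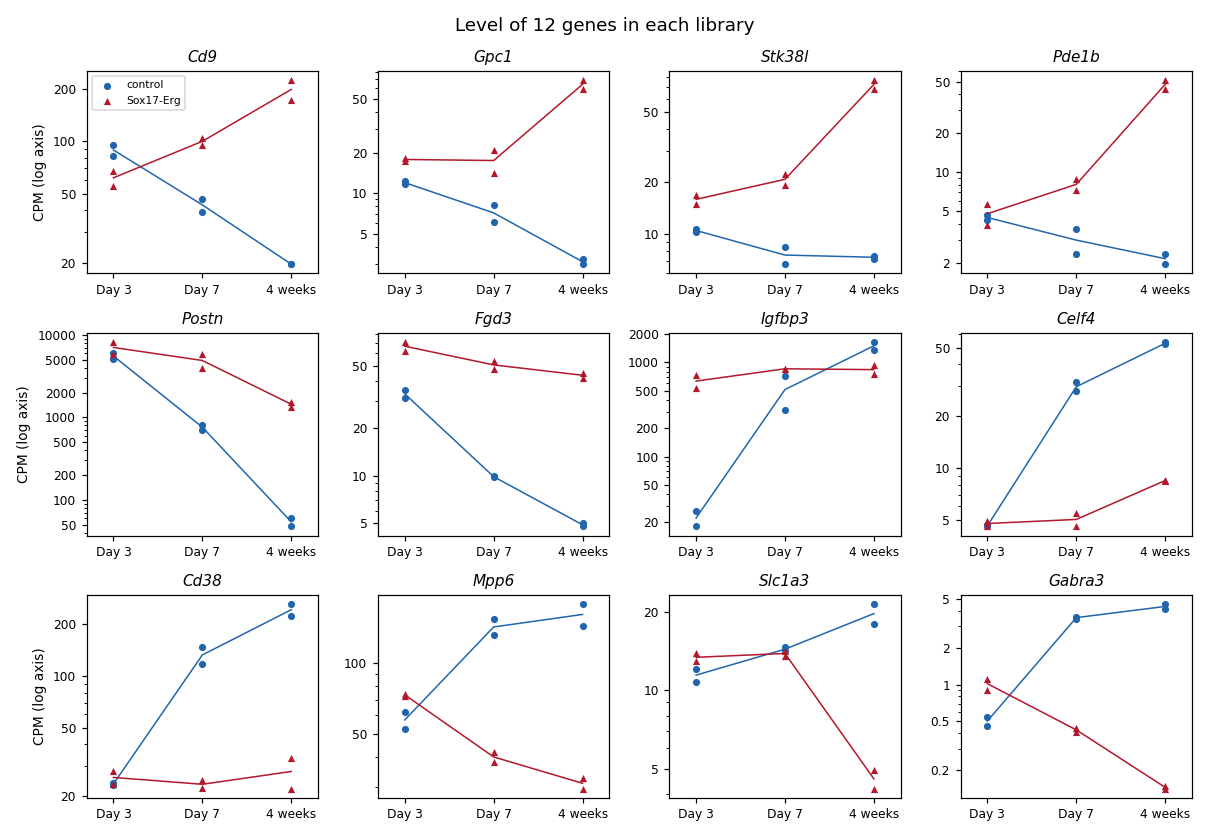
Level of 12 genes in CPM (y axis, log scale) at Day 3, Day 7 and 4 weeks (x axis), with control libraries as blue circles, *Sox17*-*Erg* libraries as red triangles and lines through the means of 2 libraries. In *Postn* and *Fgd3* the controls fall further, in *Celf4* and *Cd38* the controls rise above the *Sox17*-*Erg* libraries, in *Igfbp3* the rise of the controls closes the gap of Day 3, and in *Stk38l* and *Pde1b* the *Sox17*-*Erg* libraries rise.

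The promoters of the genes with the lowest p in the 4 classes with a larger arm are shown so that their sequences can be compared; they were taken from RefSeq (GRCm38.p6) for the first gene in order of p with an entry within 500 bases of its GENCODE start. *Celf4* was left aside, and *Fgd3* has no entry that near its start. Each runs 5′ to 3′ on the gene's strand, from 250 bases before to 50 bases after the start. Capitals mark the letters of any of 4 short motifs, searched on either strand. The ETS core was CGGAAGT, the letters that ETS factors such as ERG recognise. The Sox core was ACAATNG, after the letters that SOX factors recognise. The CCAAT box is named by its letters, and the TATA box was TATAAA. *Stk38l* (chr6:146724680-146724979, plus strand, *Sox17*-*Erg* cells moved more, effect higher) holds 2 ETS cores, which read as their reverse complement on this strand. *Postn* (chr3:54360857-54361156, plus strand, controls moved more, higher) holds a TATA box. *Slc1a3* (chr15:8710758-8711057, minus strand, *Sox17*-*Erg* cells moved more, lower) holds 3 CCAAT boxes. It also holds the letters of a TATA box, which read as their reverse complement on this strand. *Sytl5* (chrX:9885371-9885670, plus strand, controls moved more, lower) holds none of these letters.
Stk38l: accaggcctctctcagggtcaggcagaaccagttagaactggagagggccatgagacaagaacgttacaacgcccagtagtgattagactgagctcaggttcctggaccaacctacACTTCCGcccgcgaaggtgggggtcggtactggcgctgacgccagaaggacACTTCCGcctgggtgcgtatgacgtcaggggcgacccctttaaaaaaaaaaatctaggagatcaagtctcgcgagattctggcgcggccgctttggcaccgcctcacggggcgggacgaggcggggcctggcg
Postn: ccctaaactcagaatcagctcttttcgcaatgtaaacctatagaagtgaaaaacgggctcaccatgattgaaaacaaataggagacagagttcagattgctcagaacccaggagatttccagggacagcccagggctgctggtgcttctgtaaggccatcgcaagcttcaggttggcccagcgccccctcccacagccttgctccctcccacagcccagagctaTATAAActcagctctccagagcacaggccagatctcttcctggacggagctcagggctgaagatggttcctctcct
Slc1a3: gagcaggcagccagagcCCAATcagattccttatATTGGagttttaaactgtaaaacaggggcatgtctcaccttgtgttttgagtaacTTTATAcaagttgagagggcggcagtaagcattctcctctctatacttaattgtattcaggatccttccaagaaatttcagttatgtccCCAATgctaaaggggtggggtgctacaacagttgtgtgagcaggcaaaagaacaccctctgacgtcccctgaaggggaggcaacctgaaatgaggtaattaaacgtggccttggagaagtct
Sytl5: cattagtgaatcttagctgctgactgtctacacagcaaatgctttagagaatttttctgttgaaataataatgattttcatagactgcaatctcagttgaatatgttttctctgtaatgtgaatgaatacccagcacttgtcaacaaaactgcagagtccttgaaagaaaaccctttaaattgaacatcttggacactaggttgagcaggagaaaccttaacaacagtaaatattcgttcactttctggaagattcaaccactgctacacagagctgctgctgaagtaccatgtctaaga

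A promoter was matched for 11205 of the 15506 genes tested, including 269 of the 345 higher and 105 of the 153 lower genes. An ETS core stood in 12.4% of all matched promoters, in 2.97% of those of higher genes (8 promoters) and in 2.86% of those of lower genes (3 promoters). A Sox core stood in 4.94% of all, in 2.97% of higher and in 2.86% of lower genes. These shares are a description to which no test was applied. A CCAAT box stood in 38.9% of all promoters, 32.7% of higher and 44.8% of lower ones. The letters of a TATA box, on either strand and at any position, stood in 7.94%, 6.69% and 12.4%. The median GC content of the promoters was 60.7% over all genes, 64.3% over higher and 60.0% over lower genes, and its part in these shares was not tested.

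Arterial genes, which mark the vessels in which *Sox17* is known to act, changed effect in both directions. Of 28 arterial genes tested, 7 had a higher effect at 4 weeks (25%, against 2.22% of all genes) and 2 a lower one, and the median difference over the list was 1.27. *Efnb2*, which encodes the arterial ligand ephrin-B2, was at 177 and 148 CPM in *Sox17*-*Erg* cells at Day 3 and at 251 and 218 CPM at 4 weeks, while controls fell from 55.6 and 41.5 CPM to 15.2 and 10.3 CPM. Its difference of 2.45 (adjusted p = 0.0083) was thus a difference in which the control change was larger. *Sox13*, a SOX-family factor gene, rose in *Sox17*-*Erg* cells from 25.1 and 22.1 CPM to 76.7 CPM in both libraries, with the 4 control libraries between 9.27 and 10.3 CPM.

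Other arterial genes rose in *Sox17*-*Erg* cells from lower levels. *Sema3g*, an arterial semaphorin gene, was at 19.7 and 9.35 CPM at Day 3 and at 785 and 877 CPM at 4 weeks, against 0.150 to 0.291 CPM in the 4 control libraries. *Bmx*, a tyrosine kinase gene of arterial endothelium, went from 20.7 and 10.8 CPM to 110.5 and 88.3 CPM, against 1.10 to 1.46 CPM. *Slc45a4*, *Jag2* and *Notch1* complete the higher genes, and *Nrp1* and *Igfbp3* were the lower ones. *Nrp1*, a receptor gene for VEGF and semaphorins, rose in controls from 54.7 and 55.8 CPM to 323 and 264 CPM and so came up to the 318 and 383 CPM of *Sox17*-*Erg* cells. The calls of *Efnb2*, *Sox13* and *Igfbp3* were kept in each of the 8 fits without 1 library, and without any 1 library the list kept between 2 and 5 higher calls.

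Notch signalling passes between neighbouring cells through the ligands Jagged and Delta-like and the Notch receptors and marks arterial over venous cells. Of 26 genes of the pathway tested, 4 were higher and 0 lower (2.22% and 0.987% of all genes), with a median difference of 0.59. The receptor genes were *Notch1*, at 156 and 144 CPM in *Sox17*-*Erg* cells at 4 weeks against 38.9 and 37.2 CPM in controls, and *Notch3*, at 519.6 and 609.5 CPM against 62.6 and 62.8 CPM. The ligand gene *Jag2* rose in *Sox17*-*Erg* cells from 1.82 and 0.862 CPM to 14.3 and 13.1 CPM. *Nrarp*, a target and feedback inhibitor gene of the pathway, rose from 1.32 and 1.21 CPM to 13.2 and 10.6 CPM in *Sox17*-*Erg* cells, but 78.2% of its 31-base words occur in other transcripts and its adjusted p of 0.048 became 0.057 with the block within time points. Each of these 4 calls was lost without at least 1 library, and between 0 and 2 of them remained in the 8 fits.

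Of 37 endothelial identity genes tested, 3 were higher and 0 lower (2.22% and 0.987% of all genes), and the median difference was 0.29. With the block within time points 4 were higher and 3 lower. The difference was positive in 22 of the 37 genes. By the calls within controls 9 rose and 7 fell (13.9% and 12.6% of all genes). The 39 list genes summed to 1070 and 1158 CPM in control Day 3 and 2108 and 2597 CPM in control 4 weeks libraries. In *Sox17*-*Erg* cells the sum was 1896 and 1764 CPM at Day 3 and 2951 and 2530 CPM at 4 weeks. *Pecam1*, the gene of the endothelial adhesion protein CD31, was at 23.6 and 23.01 CPM in *Sox17*-*Erg* cells and 12.6 and 16.7 CPM in controls at Day 3. At 4 weeks it was at 117 and 94.6 CPM in *Sox17*-*Erg* cells and at 3.46 and 8.17 CPM in controls, a difference of 3.54 (standard error 0.55, adjusted p = 0.011; 0.051 without *Sox17*-*Erg* Day 3 replicate 2). It rose in one arm by 2.19 and fell in the other by 1.35. *Myct1*, an endothelial target gene of ETS factors, went from 13.97 and 11.2 CPM to 29.3 and 26.4 CPM in *Sox17*-*Erg* cells and from 1.64 and 1.71 CPM to 0.652 and 0.610 CPM in controls. *Icam2*, an endothelial adhesion gene, differed by 3.20, and its call was lost in 7 of the 8 fits.

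Other markers of endothelium had large values that did not pass the test. *Cdh5* was at 208 and 148 CPM in *Sox17*-*Erg* cells at Day 3 and 496 and 394 CPM at 4 weeks, against 0.910 and 14.3 CPM and 0.251 and 0.569 CPM in controls, a difference of 5.60 with a standard error of 1.89 (adjusted p = 0.16). The 2 control Day 3 libraries of *Cdh5* lay far apart. *Vwf*, the gene of von Willebrand factor, was between 0.873 and 2.27 CPM in the 4 Day 3 libraries, at 67.9 and 47.9 CPM in *Sox17*-*Erg* cells at 4 weeks and at 2.06 and 3.01 CPM in controls then, a difference of 4.49 (standard error 1.36, adjusted p = 0.13). *Vwf* was called by DESeq2's Wald test (adjusted p = 0.035) in the fit of the 8 libraries alone (0.018) and without a filter on low counts. *Tek*, the gene of the angiopoietin receptor, had a negative difference of -1.001 (adjusted p = 0.087, and 0.049 with the block within time points). Of 12 venous and lymphatic genes tested 1 was higher (2.22% of all genes), and 0 to 2 without 1 library: *Prox1*, the lymphatic transcription factor gene, at 38.4 and 25 CPM in *Sox17*-*Erg* cells at 4 weeks against 0.877 and 1.46 CPM, with its call kept in 3 of the 8 fits.

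Growth factor genes of the FGF, PDGF and EGF families gave 8 higher (21.1%) and 1 lower call of 38 tested, against 2.22% and 0.987% of all genes, with a median difference of 0.72. Among receptors, *Fgfr1* rose in *Sox17*-*Erg* cells from 199 and 243 CPM to 534 and 454 CPM, and the 4 control libraries stayed between 216 and 274 CPM, a difference of 1.37 (adjusted p = 0.011). *Fgfr3* rose from 1.72 and 1.55 CPM to 10.6 and 8.33 CPM and *Fgfrl1*, a decoy receptor gene, rose in both arms and more in *Sox17*-*Erg* cells. *Egfr* was the lower gene: it fell to 15.2 and 21 CPM in *Sox17*-*Erg* cells and rose to 136 and 113 CPM in controls. Among ligands, *Pdgfb*, which endothelial cells release to attract pericytes, rose in *Sox17*-*Erg* cells from 50.5 and 19.9 CPM to 200.1 and 189.6 CPM against at most 1.06 CPM in controls. *Btc*, *Nrg1* and *Nrg2*, ligand genes of the EGF family, were higher with differences of 2.82, 2.40 and 4.07, and *Fgf7* was lower than in controls at Day 3 (1.11 and 1.81 against 5.46 and 6.20 CPM) but not at 4 weeks. The calls of *Fgfr1* and *Fgfr3* held in all 8 fits without 1 library, those of the other 7 did not, and with the block within time points 12 genes of the list were higher. Without 1 library 2 to 5 were higher and 0 to 1 lower.

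The VEGF and angiopoietin list gave 3 higher genes and 1 lower gene, *Nrp1*, of 28 tested (2.22% and 0.987% of all genes), with a median of -0.12. The counts were 4 and 4 with the block within time points and 1 to 2 and 0 to 1 without 1 library. Beside *Pgf*, the higher genes were *Vegfa*, at 158 and 99.6 CPM in *Sox17*-*Erg* cells at 4 weeks against 38.4 and 45.3 CPM, and *S1pr1*, a sphingosine phosphate receptor gene of endothelial cells, at 163 and 124 CPM against 1.23 and 1.22 CPM. The adjusted p of *S1pr1* was 0.049 and 0.065 with the block within time points. The receptor gene *Kdr* was at 106 and 42.3 CPM in *Sox17*-*Erg* cells at Day 3 and at 36.0 and 25.6 CPM at 4 weeks, with controls between 2.64 and 4.00 CPM, and its difference of -1.18 did not pass (adjusted p = 0.37).

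Guidance genes, whose ligands and receptors steer axons and vessels, gave 8 higher (13.1%) and 2 lower genes of 61 tested, against 2.22% and 0.987% of all genes, and 5 to 7 and 0 to 3 without 1 library. *Ephb3*, an ephrin receptor gene, rose in *Sox17*-*Erg* cells from 31.3 and 36.6 CPM to 52.7 and 56.7 CPM and fell in controls from 16.8 and 16.3 CPM to 8.90 and 8.34 CPM. *Plxnd1*, the semaphorin receptor gene of endothelial cells, had 52.4 and 76.8 CPM in *Sox17*-*Erg* cells and 45.1 and 72.9 CPM in controls at Day 3, and 150.1 and 148 CPM against 27.8 and 24.97 CPM at 4 weeks. The ligand genes *Ntn1*, *Ntn4*, *Efna1*, *Sema6a*, *Sema3g* and *Efnb2* were the other higher ones. *Epha4*, which rose in controls from 4.29 and 3.79 CPM to 46.7 and 29.1 CPM, and *Sema3c*, which fell in *Sox17*-*Erg* cells from 2.33 and 2.28 CPM to 0.354 and 0.519 CPM, were the lower ones. Blocked within time points, 9 guidance genes were higher and 6 lower.

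**Figure D4:**
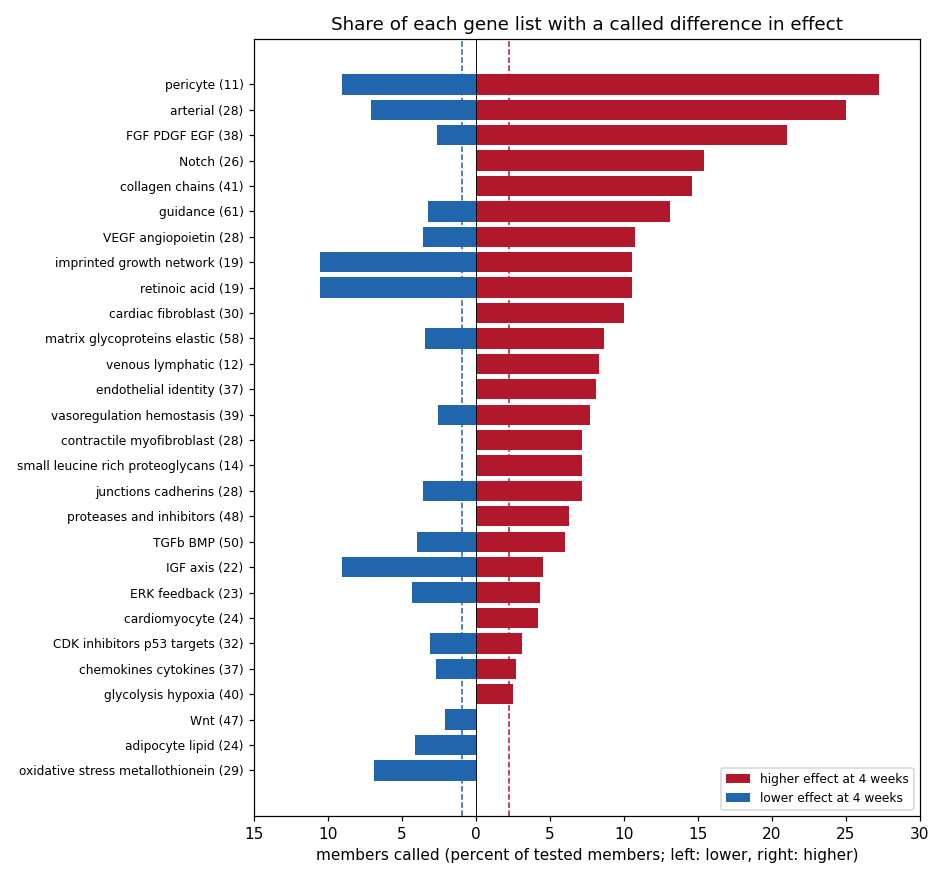
Share of the tested members of each gene list with a called difference in effect, higher to the right in red and lower to the left in blue, in percent (number tested in parentheses). Dashed lines are the shares over all genes tested, 2.22% and 0.987%. Only lists with at least 1 called gene are drawn, led by pericyte, arterial and FGF, PDGF and EGF genes.

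Of 41 collagen chain genes tested, 6 were higher (14.6%) and 0 lower, against 2.22% and 0.987% of all genes, and with the block within time points 9 were higher and 3 lower. Without 1 library 2 to 4 were higher, and *Col18a1*, *Col28a1* and *Col4a4* were called in 0, 1 and 3 of the 8 fits. *Col14a1*, a fibril-associated collagen gene, stayed at 823 and 1264 CPM at Day 3 and 763 and 1091 CPM at 4 weeks in *Sox17*-*Erg* cells, while controls fell from 479 and 636 CPM to 95.6 and 82.9 CPM. *Col4a3* and *Col4a4*, basement membrane chains encoded side by side, were higher although both remained below controls: *Col4a3* rose from 2.33 and 2.28 CPM to 92.0 and 95.7 CPM in *Sox17*-*Erg* cells and from 51.2 and 40.6 CPM to 279.6 and 282.5 CPM in controls. The effect of *Col4a3* was -4.31 at Day 3 and -1.58 at 4 weeks, both called. *Col10a1*, *Col18a1* and *Col28a1* were the other 3, and *Col10a1* is given with the genes at the count floor. The main fibril genes *Col1a1* and *Col1a2* had differences of 0.38 and -0.04 that did not pass.

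Of 58 other matrix glycoprotein and elastic fibre genes tested, 5 were higher and 2 lower, against 2.22% and 0.987% of all genes. The counts were 9 and 4 with the block and 3 to 5 and 1 to 2 without 1 library. *Lama5*, a laminin chain gene of vascular basement membranes, rose in *Sox17*-*Erg* cells from 91.8 and 54.8 CPM to 545 and 419 CPM and fell in controls from 108 and 64.9 CPM to 44.9 and 38.4 CPM. *Ltbp1*, which encodes a binding protein of latent TGFβ, rose to 594 and 564 CPM in *Sox17*-*Erg* cells against 45.2 and 54.6 CPM in controls. *Postn*, *Agrn* and *Lamc3* were the other higher genes, called in 8, 6 and 0 of the 8 fits without 1 library. *Fbln1*, a fibulin gene, was lower: it rose in controls from 22.9 and 25.8 CPM to 786 and 487 CPM and reached only 63.1 and 89.6 CPM in *Sox17*-*Erg* cells, a difference of -3.80 (standard error 0.44, adjusted p = 0.0042). *Fbn2* was the other, called in 4 of the 8 fits. Of 14 small leucine-rich proteoglycan genes 1 was higher (*Fmod*), and of 48 protease and inhibitor genes 3 were higher (*Adamtsl3*, *Adamts4* and *Adam19*), where 2.22% of all genes were. Of these 4 genes each was called in at most 1 of the 8 fits.

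Of 30 cardiac fibroblast genes tested 3 were higher, 0 were lower (2.22% and 0.987% of all genes), and the median difference was 0.15. *Scx* and *Prrx2*, mesenchymal transcription factor genes (called in 5 and 7 of the 8 fits without 1 library, with adjusted p = 0.052 and 0.057 without control Day 3 replicate 1), and *Pi16*, a gene of adventitial fibroblasts, were higher, with *Pi16* going from 1.22 and 0.862 CPM to 25.2 and 15.3 CPM in *Sox17*-*Erg* cells against 0.655 to 1.05 CPM in controls. *Pdgfra*, a growth factor receptor gene of fibroblasts, was at 544 and 757 CPM at Day 3 and at 1657 and 1609 CPM at 4 weeks in controls (adjusted p = 0.10 for that change) and at 114 and 292 CPM and then at 330 and 335 CPM in *Sox17*-*Erg* cells, and its difference of -0.62 did not pass the test (adjusted p = 0.76). The summed level of the list was 10300 and 12710 CPM in control Day 3 and 31760 and 23990 CPM in control 4 weeks libraries, and 2640 and 4783 and then 11820 and 9634 CPM in *Sox17*-*Erg* cells.

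Mural cell genes, which mark pericytes and smooth muscle, gave higher calls from both arms. Of 11 pericyte genes tested 3 were higher (27.3%, against 2.22% of all genes) and 1 lower, and 0 to 3 were higher without 1 library. *Cspg4*, which encodes the proteoglycan NG2, fell in controls from 146 and 156 CPM to 8.04 and 9.52 CPM and was at 97.0 and 122 CPM in *Sox17*-*Erg* cells at 4 weeks. *Mcam* fell in controls from 71.0 and 53.6 CPM to 2.91 and 6.95 CPM, and the *Sox17*-*Erg* libraries held 252 to 378 CPM at both times. *Notch3* was the third and *Abcc9*, which rose in controls, the lower one. By the calls within controls, 6 of the 11 genes rose and 2 fell (13.9% and 12.6% of all genes). The median difference of the list was 1.98, and it was positive in 6 genes. The call of *Cspg4* was lost without control 4 weeks replicate 1 (adjusted p = 0.054), and those of *Mcam*, *Notch3* and *Abcc9* were kept in 1, 3 and 3 of the 8 fits. Of 28 contractile genes 2 were higher, *Myh11* and *Lmod1*. *Myh11*, the smooth muscle myosin heavy chain gene, rose in *Sox17*-*Erg* cells from 4.56 and 8.45 CPM to 278 and 223 CPM and in controls from 9.64 and 11.1 CPM to 55.9 and 35.3 CPM. With the block within time points 8 contractile genes were higher.

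Among signalling lists with calls in both directions, the TGFβ and BMP list had 3 higher and 2 lower genes of 50 tested, against 2.22% and 0.987% of all genes, and 0 to 2 higher genes without 1 library. *Tgfb2* rose in *Sox17*-*Erg* cells from 126 and 88.6 CPM to 522 and 352 CPM, and *Tgfb1* and *Id4* were also higher, while the receptor gene *Tgfbr1* rose in controls alone and was lower, as was *Gdf6*. Of 47 Wnt genes 1 was lower: *Sfrp1*, a secreted Wnt inhibitor, rose in controls from 136 and 116 CPM to 925 and 492 CPM and was between 55.3 and 77.8 CPM in *Sox17*-*Erg* cells at both times. Of 22 genes of the insulin-like growth factor axis *Igf2r* was higher, a call kept in 0 of the 8 fits without 1 library, and *Igfbp3* and *Pappa* were lower. *Pappa*, which encodes a protease that cleaves IGF binding proteins, was above controls at Day 3 (86.7 and 74.2 against 16.3 and 7.35 CPM) and below them at 4 weeks (27.8 and 20.3 against 84.4 and 53.4 CPM). With the block within time points the higher and lower counts were 6 and 4 for TGFβ and BMP, 4 and 2 for Wnt and 3 and 4 for insulin-like growth factor genes.

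Smaller lists held 1 or 2 calls in a direction, where 2.22% of all genes were higher and 0.987% lower, and most of these calls depended on single libraries. Of 19 retinoic acid genes *Aldh1a3* and *Rara* were higher and *Rarb* was among the lower ones, and of 19 imprinted growth genes *Plagl1* and *Igf2r* were higher and *Ndn* and *Slc38a4* lower. Without 1 library *Rarb* was called in 7 of the 8 fits, *Aldh1a3*, *Rara*, *Plagl1* and *Ndn* in 1 each and *Igf2r* and *Slc38a4* in 0. *Slc38a4*, an amino acid transporter gene, fell from 28.5 and 28.9 CPM to 0.777 and 0.610 CPM in controls and further, from 30.1 and 32.2 CPM to 0.212 and 0.185 CPM, in *Sox17*-*Erg* cells, and its adjusted p was 0.036 and 0.056 with the block within time points. Of 29 oxidative stress genes 2 were lower, *Gsta4* and *Prdx6*, called in 8 and 2 of the 8 fits. Of 37 chemokine and cytokine genes *Clcf1* was higher and *Ccl2*, a monocyte chemoattractant gene, lower: it was at 42.9 and 42.6 CPM in *Sox17*-*Erg* cells at Day 3 and at 15.7 and 14.5 CPM at 4 weeks, with the 4 control libraries between 11.5 and 13.1 CPM. Of 24 ERK feedback genes in the list 23 were tested, with *Spred3* higher and *Myc* lower. Of these 4 genes *Ccl2* was called in all 8 fits without 1 library and the others in 1 each. The block within time points gave 7 higher ERK feedback genes, 3 higher chemokine and cytokine genes and 5 lower imprinted genes.

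Of 39 vasoregulation and hemostasis genes 3 were higher, *Entpd1*, *Ece1* and *F2rl1*, and *Gucy1b1*, a nitric oxide receptor subunit gene, was lower, against 2.22% and 0.987% of all genes. Without 1 library 1 to 2 were higher and 0 to 1 lower: *Entpd1* was called in all 8 fits, *Ece1* in 3, *F2rl1* in 1 and *Gucy1b1* in 0. The median difference of that list was -0.39, and 6 of its genes were higher and 5 lower with the block within time points. *Entpd1*, which encodes the ATP-degrading enzyme CD39, fell in controls from 6.04 and 5.83 CPM to 1.303 and 2.03 CPM and rose in *Sox17*-*Erg* cells from 11.6 and 8.62 CPM to 43.9 and 35.8 CPM. Of 28 junction and cadherin genes *Cdh13* and *Cldn1* were higher and *Cdh11* lower, called in 8, 1 and 8 of the 8 fits. *Cdh11*, the fibroblast cadherin gene, rose in controls from 230 and 182 CPM to 357 and 281 CPM and fell in *Sox17*-*Erg* cells from 161 and 155 CPM to 81.1 and 83.7 CPM, a difference of -1.57 (adjusted p = 0.0083). Of 40 glycolysis and hypoxia genes 1 was higher, near the 2.22% of all genes: *Vegfa*, whose call was kept in 1 of the 8 fits without 1 library. The lists of p53 targets (*Bbc3* higher, *Ei24* lower of 32), cardiomyocyte genes (*Myom1* higher of 24, with a list median of -0.89) and adipocyte and lipid genes (*Fabp5* lower of 24) held no call that was kept in all 8 fits. Under the block within time points they had 4, 1 and 1 higher and 2, 6 and 2 lower genes. With DESeq2 they had 4, 2 and 1 higher and 1, 1 and 7 lower genes.

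In 13 of the 41 lists no difference in effect was called, in some of them while both arms moved far. All 74 mitosis genes tested fell in *Sox17*-*Erg* cells and 69 fell in controls (15.6% and 12.6% of all genes), with median changes of -2.71 and -3.11. The differences in effect ran from -2.05 to 1.19, with a median of 0.27. *Mki67*, the proliferation marker gene, fell by 2.95 in *Sox17*-*Erg* cells and by 3.74 in controls. Of 57 DNA replication genes 51 fell in *Sox17*-*Erg* cells and 21 in controls, with medians of -1.80 and -0.97, and the median difference was -0.62. With the block within time points 13 DNA replication genes and 3 mitosis genes were called lower, and DESeq2 called 4 and 0.

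Of 50 interferon-stimulated genes 26 rose in controls and 9 in *Sox17*-*Erg* cells, of 20 complement genes 14 and 13, and of 20 class I antigen presentation genes 8 and 8, where 13.9% of all genes rose in controls and 15.1% in *Sox17*-*Erg* cells. Their median differences were -0.55, -0.31 and -0.13. Of 74 oxidative phosphorylation genes 30 fell in *Sox17*-*Erg* cells and 3 in controls (15.6% and 12.6% of all genes), and the median difference was -0.31. No call was made among macrophage, mesothelial, Schwann and glial, NFκB and adhesion, cholesterol synthesis, unfolded protein and lysosome genes either. Under the block within time points, 3 mesothelial and 3 interferon-stimulated genes were lower and 2 lysosome genes higher, and the other lists without a call, apart from mitosis and DNA replication, had at most 1 in a direction. A list without a call is not shown to have equal effects at both times: 2623 genes had an unadjusted p under 0.05, and 498 passed the adjustment.

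Some lists mark cells other than fibroblasts, and their summed levels moved with treatment and time. Mesothelial and epicardial genes summed to 1451 and 688 CPM in control Day 3 and 3315 and 2048 CPM in control 4 weeks libraries, and to 454 and 291 and then 703 and 468 CPM in *Sox17*-*Erg* cells. Cardiomyocyte genes summed to 1607 and 939 and then 1157 and 1457 CPM in controls and to 456 and 366 and then 738 and 737 CPM in *Sox17*-*Erg* cells. Schwann and glial genes summed to 17.5 and 17.7 CPM and then 186 and 158 CPM in controls and to 12.3 and 6.29 and then 52.0 and 74.0 CPM in *Sox17*-*Erg* cells. The part of such cells in the differences in effect was not tested.

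The largest differences belonged to genes that were at or near 0 in some group, and for these the levels are given, with a bound for the fold at 4 weeks where both controls were then at 0 counts. With the floor set at 3 counts in a library (0.0986 to 0.141 CPM in the 4 groups), 22 of the 498 genes had a group at the floor. *Npffr1*, a neuropeptide receptor gene, was at 33.9 and 56.3 CPM in *Sox17*-*Erg* cells at 4 weeks and at 0 counts in both controls then, at least 457-fold higher. At Day 3 it was at 1.37 and 1.29 CPM against 0.182 and 0.324 CPM. *Prdm1*, a transcriptional repressor gene, was at 47.3 and 46.7 CPM at 4 weeks against 0 counts in both controls, at least 477-fold higher, and at 7.89 and 4.27 CPM against 0.109 and 0.0462 CPM at Day 3. *Rapgef4*, a cyclic AMP-activated exchange factor gene, was at 21.98 and 17.5 CPM at 4 weeks against 0 and 0.0813 CPM in controls. The calls of *Prdm1* and *Rapgef4* were each lost in 6 of the 8 fits without 1 library, and that of *Npffr1* in none.

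Other genes of this kind are best known from tissues outside the vessel wall. *Col10a1*, the collagen gene of hypertrophic cartilage, was at most 0.328 CPM in the other 6 libraries and at 46.1 and 28.1 CPM in *Sox17*-*Erg* cells at 4 weeks (adjusted p = 0.0042, and 0.17 without control Day 3 replicate 1). *Gldn*, which encodes the adhesion protein gliomedin of peripheral nerve, went from at most 0.447 CPM in those 6 libraries to 46.5 and 44.1 CPM, with a difference of 7.89 (standard error 0.94, adjusted p = 0.0044) that was called without any 1 library. *Aqp4*, a water channel gene, rose to 10.6 and 6 CPM in *Sox17*-*Erg* cells. *Acan*, which encodes the cartilage proteoglycan aggrecan, fell in controls from 1.06 and 0.971 CPM to 0 and 0.0407 CPM and was at 5.06 and 3.67 CPM in *Sox17*-*Erg* cells at 4 weeks, and *Efhd1* was at 2.94 and 2.70 CPM there. Without 1 library the calls of *Aqp4*, *Acan* and *Efhd1* were kept in 0, 1 and 2 of the 8 fits.

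At the other end, the 10 lower genes with the largest differences, after 4 gene models without a symbol or with a Gm name were passed over, had less than 20 CPM in most libraries, apart from *Igfbp3*. *Sphkap*, which encodes an anchoring protein of protein kinase A, was at 30.3 and 11.6 CPM in *Sox17*-*Erg* cells at Day 3 and at 3.40 and 3.93 CPM at 4 weeks, against 0 to 0.426 CPM in controls. *Cntfr*, a cytokine receptor subunit gene, rose in controls from 0.291 and 0.462 CPM to 4.61 and 3.05 CPM and was called without any 1 library. *Npy1r*, *Shisa3*, *Dio2* and *Grm8* rose in controls as well, to means between 1.24 and 8.47 CPM, with calls kept in 1, 4, 2 and 0 of the 8 fits without 1 library, and that of *Sphkap* was kept in 2. *Fndc3c1* and *Soga3* fell in *Sox17*-*Erg* cells, from 7.64 and 2.80 CPM to 0 counts and from 1.97 and 0.819 CPM to 0.0354 and 0.0370 CPM. Their calls were lost in 8 and 7 of the 8 fits without 1 library, and the adjusted p of *Soga3* was 0.053 with the block within time points.

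Of the 131 called genes followed by name, 54 were called in each of the 8 fits without 1 library and 12 in none. They included all 6 classes: *Stk38l*, *Postn*, *Cd9*, *Slc1a3*, *Celf4* and *Mpp6* were among the 54. Of the 136 genes followed, called or not, 11 including *Nrarp*, *Rarb*, *Stk38l*, *Suclg2* and *Cd9* share more than 10% of their 31-base words with other genes, so their counts are less certain.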

How the data were processed

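RNA was measured in 12 bulk libraries, 2 for each of 6 groups, of which 8 enter the differences. Per the labels and the study's methods, libraries were made with a stranded mRNA kit, demultiplexed with bcl2fastq 2.20.0, trimmed and quantified with Salmon against mm10, and the authors deposited estimated counts per gene, not normalized. The Salmon version and the annotation are not given in the sources used here. Symbols and positions came from GENCODE on GRCm38.

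Estimated counts were rounded and tested with edgeR 4.0.16 (quasi-likelihood, TMM scaling, R 4.3.3). Genes passed filterByExpr at a minimum count of 10 and a total of 15, and 1 mean per group was fitted over all 12 libraries with 6 residual degrees of freedom. Adjusted p-values are Benjamini-Hochberg values over all 15506 genes tested, called under 0.05. Level is CPM after TMM scaling. DESeq2 1.42.0, other scalings, filters, blocks and fits without 1 library were alternatives. The fits were tested on simulated data.

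The labels do not say that libraries of a group came from separate isolations, so p-values measure only the spread between these libraries. Same-numbered control and *Sox17*-*Erg* libraries deviated together within each time point (correlations 0.186, 0.301 and 0.171), so that the replicate number was used as a block within time points, beside the fit without it. Across time points such correlations ran from -0.14 (control Day 7 with *Sox17*-*Erg* 4 weeks) to 0.219 (*Sox17*-*Erg* Day 3 with Day 7). A pairing particular to a time point was thus not shown. Genes named are the 5 with the lowest p in each of 6 classes, the 10 largest differences in each direction with a group mean of at least 1 CPM, called members of gene lists, the transgenes and 4 endothelial markers. Gene models without a symbol or with a Gm or Rik name were passed over (4 among the largest lower differences and 1 among the lowest p). The gene lists and members were chosen with earlier results of these data known. One called list member is not reported here.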

Additional observations from a re-analysis of the deposited data

Results flagged for a closer look

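A difference between the effects at 4 weeks and Day 3 that passed the test counts as a difference between groups, which holds for the 345 higher and 153 lower genes. In 4 of the genes named, the effect was also called at each time with opposite signs. *Lmod1*, a smooth muscle actin-binding gene, was at 31.4 and 45.6 CPM in *Sox17*-*Erg* cells against 70.3 and 76.0 CPM at Day 3, and at 110.1 and 66.2 CPM against 34.4 and 31.1 CPM at 4 weeks, a difference of 2.35 on the log2 scale. *Gdf6* (-1.90), *Sytl5* (-3.62) and *Pappa* (-4.28) went from a positive to a negative effect. These 4 calls were kept in each of the 8 fits without 1 library. Groups of 2 libraries are too small for a test of single outlying samples.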

How the results depend on the processing

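All 498 genes kept the sign of their difference in every alternative in which they were tested. The alternatives reuse the counts by which these genes were called, so a kept sign is not separate support. A stricter adjusted p or a minimum log2 difference uses the same fit and cannot change a sign. The counts of higher genes, lower genes, genes with the larger *Sox17*-*Erg* change, with the larger control change and with neither shown larger (345, 153, 166, 154 and 178) moved to 691, 364, 338, 326 and 391 with DESeq2's Wald test, of whose calls 496 were shared with the 498. They moved to 732, 447, 387, 381 and 411 with no filter beyond 1 count, and to 87, 36, 32, 38 and 53 at an adjusted p under 0.01. With the replicate block within time points they were 638, 430, 418, 341 and 309, and the share of higher calls was 59.7% against 69.3%. That block took the adjusted p of *Nrarp*, *S1pr1*, *Slc38a4* and *Soga3* above 0.05 and that of *Tek* below it, and changed no other call among the genes named. With the replicate numbers crossed at 4 weeks, an alternative chosen after seeing the data because same-numbered controls of Day 3 and 4 weeks had a correlation of -0.104, 255 genes were lower and 293 had the larger *Sox17*-*Erg* change.

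Without 1 library the 5 counts ran from 127 to 216, 44 to 83, 56 to 100, 50 to 103 and 62 to 107, and the share of higher calls reached 78.9% without control Day 3 replicate 2. The difference of *Erg*, not called, was 3.45 and ran from -0.32, without that library, to 4.49, without control Day 3 replicate 1. The cause of these movements was not tested. DESeq2 size factors, a filter on CPM, the 8 libraries alone, a block over all libraries, a GC-content offset and a minimum log2 difference of 1 left the 5 counts within 1.5 times. Depth limits genes under the floor of 3 counts, where levels are bounds.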
